A study of Mus musculus with 8 samples.

Results

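The genes described here are those of the integrated stress response and of aminoacyl-tRNA synthesis, measured by RNA-seq in RFB, a line of mouse kidney. They were chosen by name: every row of the deposited table whose symbol is that of an aminoacyl-tRNA synthetase ending in "ars", "ars1" or "ars2", or Eprs, together with listed kinases, transcription factors, effectors and enzymes that act with the transcription factor ATF4. This gave 60 of the 22274 genes in the table, of which 59 passed the filter on low counts and were tested among 13702 genes. The member left out is a second row named Ddit3 (ENSMUSG00000116429), which held 2 reads over all 8 libraries. The line is labelled as a fibroblast from kidney, and all 8 libraries carry TGF-β, the cytokine used to drive fibrotic gene expression, so there is no group without it. Of these, 4 libraries are labelled ad-GFP and 4 ad-CRE. GFP is a fluorescent protein and Cre a recombinase that cuts out DNA between loxP sites. The labels spell out neither the prefix, the allele that Cre would act on, the TGF-β dose nor the time, and they do not say if replicates are distinct cultures. P-values here therefore reflect how far these libraries spread, and that spread may be technical.

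The title and design of the series name Suv39h1, which encodes a methyltransferase of lysine 9 of histone H3, and its knockdown. Suv39h1 (chromosome X, 8061171 to 8074760, minus strand, GRCm38) stood at 37.2, 43.6, 44.1 and 41.3 CPM in the ad-GFP libraries and at 32.3, 32.9, 33.4 and 31.6 CPM in the libraries labelled ad-CRE, where CPM is the count scaled to the size of the library. The level was 21.7% lower in the libraries labelled ad-CRE. Smarca4, which encodes the remodelling ATPase BRG1, stood at 300, 276, 280 and 294 CPM against 29.9, 35.7, 37.3 and 34.1 CPM, 88.1% lower. Which part of either transcript would be removed is not given, so gene counts check the labels only in part, and the reason for the gap between the 2 genes was not tested. All directions below are those of the libraries labelled ad-CRE relative to ad-GFP.

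Total counts ran from 15998257 to 22297598 per library. Markers of cell types, the labelled one included, moved with the groups. The summed level of 14 fibroblast markers was 3510 to 3630 CPM in ad-GFP and 1880 to 2000 CPM in ad-CRE. Most of that sum came from Acta2 (mean 1640 CPM in ad-GFP, 1130 CPM in ad-CRE) and Vim (1610 and 693 CPM). Among the 12 fibroblast markers tested, 11 were lower and 1 higher by the test. Lum was at or near 0 and Dcn averaged 3.87 CPM in ad-GFP. Of 15 tested tubular epithelial markers 9 rose and 4 fell. The sum of all 18 listed went from 2390 to 2640 CPM up to 5130 to 5290 CPM, while Aqp2 was at 0 in every library. Krt8, Krt18, Cldn4 and Cdh1, which rose, had the highest CPM of the list in ad-CRE. The 4 that fell were Cdh16 (log2 fold change -0.66), Lrp2 (-0.55), Cubn (-0.82) and Slc12a1 (-2.13). Of 10 endothelial markers all fell (162 to 176 against 71.9 to 80.2 CPM). Of 8 tested leukocyte markers 7 fell (243 to 276 against 173 to 180 CPM, summed over all 10 listed), with Cd3e at 0 throughout. The part of these shifts in the results below was not tested, and in bulk RNA fewer cells of a type and less RNA per cell cannot be told apart.

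As background, the integrated stress response begins when a kinase phosphorylates the initiation factor eIF2. General translation then slows, while the mRNA of the transcription factor ATF4 is translated better. ATF4, often paired with a C/EBP protein, binds C/EBP-ATF response elements in genes of amino acid synthesis, amino acid transport and tRNA charging. Aminoacyl-tRNA synthetases join each amino acid to its tRNA. Most amino acids have a cytosolic enzyme and a separate nuclear-encoded mitochondrial enzyme, whereas Gars and Kars encode both forms from a single gene. Because ATF4 is regulated largely at translation, RNA levels do not measure its activity.

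The core of that element, spelled TGATGNAA and searched on both strands from 250 bases before to 50 bases after each transcript start, shows which members carry a candidate ATF4 element next to their start. Promoters in RefSeq on GRCm38.p6 were found by symbol for 48 of the 59 tested members, and not for the other 11, which include Cars, Hars, Lars, Nars, Rars, Vars, Wars, Hars2, Pars2 and Eif4ebp1. Matches that lie before the start are printed below for 6 members on the strand of the gene, 5′ to 3′, with 11 bases on each side where these stay before the start and the motif in capitals. They lie at chr6:7693214-7693243 (Asns), chr11:120643833-120643862 (Pycr1), chr6:55037960-55037989 (Gars), chr15:11399659-11399684 (Tars), chr2:119351038-119351067 (Chac1) and chr7:126625562-126625591 (Nupr1).
Asns: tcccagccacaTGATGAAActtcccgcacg
Pycr1: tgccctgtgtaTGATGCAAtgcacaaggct
Gars: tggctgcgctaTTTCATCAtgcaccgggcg
Tars: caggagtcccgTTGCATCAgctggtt
Chac1: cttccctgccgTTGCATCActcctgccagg
Nupr1: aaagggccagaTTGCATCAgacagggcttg
Asns and Pycr1 carry the core in the direction of the gene, and the other 4 printed here carry its reverse complement.

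Together with Aars, and with Iars, Yars and Trib3, whose matches begin 8, 4 and 15 bases after the start, 10 of 48 members (20.8%) held the core, against 1219 of 27025 genes with a promoter in the table (4.51%). The matches printed above began between 15 bases (Tars) and 193 bases (Chac1) before the start. By role, among members with a promoter found, the core was in 5 of 11 cytosolic synthetases (18 were tested). It was in none of 14 mitochondrial ones (17 were tested). The core was in 2 of 6 genes of amino acid synthesis, 2 of 4 effectors, 1 of 6 transcription factors and in no kinase or one-carbon gene. By direction, 4 of the 16 matched members that rose held it (25.0%), 5 of the 19 that fell (26.3%) and 1 of the 13 that did not pass the test (7.69%). Promoters were found for 16 of the 17 members that rose but for 19 of the 26 that fell. The shares thus cover the falls less fully, and Wars and Rars are among those not covered. A match is a description of letters, not a site of binding.

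**Figure D1:**
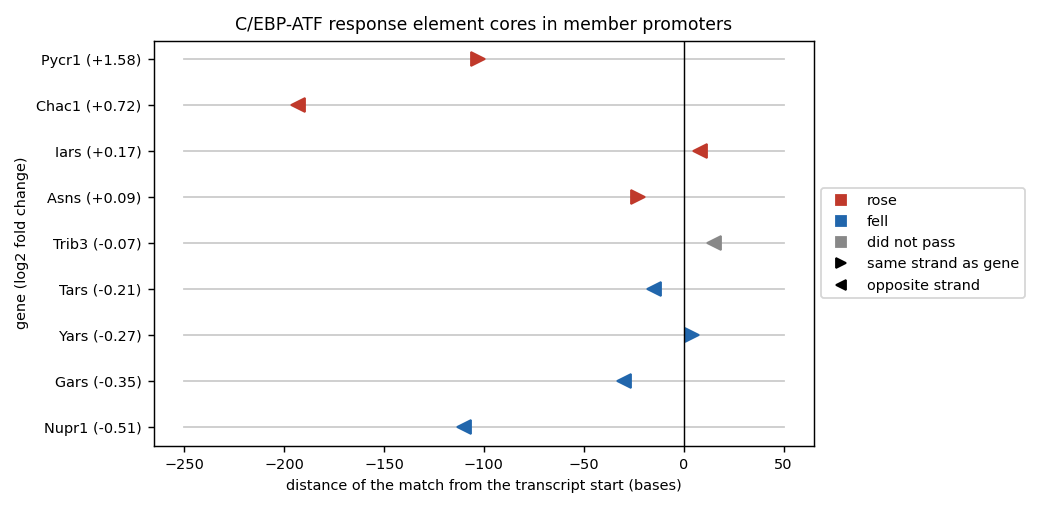
Position of each match of the response element core (bases from the transcript start, negative upstream) for 9 of the 10 members that hold 1 or more, in order of their log2 fold change between ad-CRE and ad-GFP. Matches lie from 193 bases before the start (Chac1) to 15 bases after it (Trib3), in members that rose, fell or did not pass the test.

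Of the 59 tested members, 43 (72.9%) passed the threshold of 0.05 on the adjusted p of edgeR's quasi-likelihood test, against 73.1% of all 13702 genes. The share is near the background and is no result about the members. By direction, 17 rose (28.8%, against 36.8% of all genes) and 26 fell (44.1%, against 36.3%). The median log2 fold change of the tested members was -0.04 and the median size 0.19, against 0.00 and 0.32 over all genes. The groups did not overlap in 41 members (69.5%), against 66.2% of all genes. A change of at least 0.5 on the log2 scale was passed by 15 members (33.9% of all genes): 5 rose (15.2% of all genes) and 10 fell (18.7% of all genes). The roles differed from each other in direction, as the plot of fold changes by role shows.

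**Figure D2:**
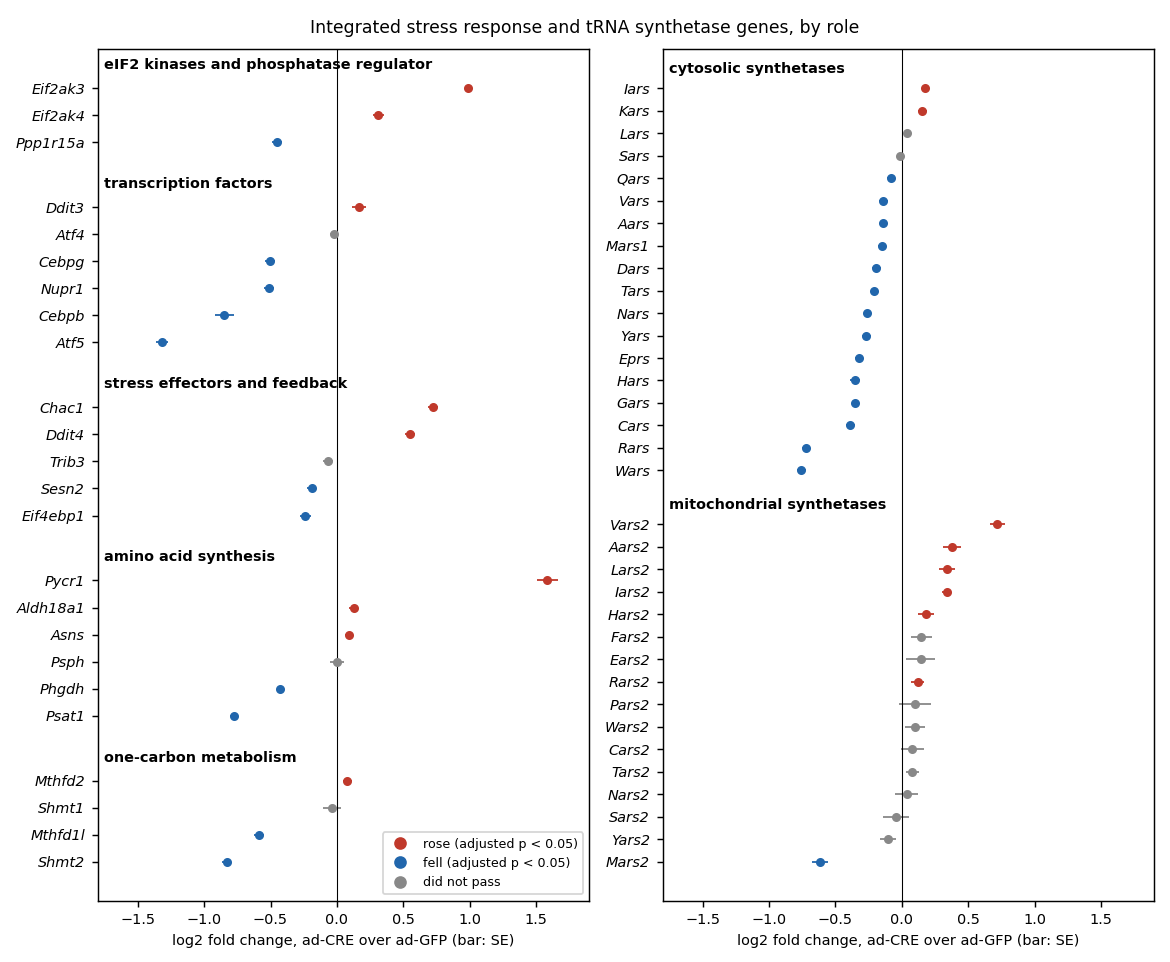
Log2 fold change of ad-CRE against ad-GFP for 58 of the 59 tested members, grouped by role, with bars for the SE and colour for the call. Cytosolic synthetases lie mostly below 0 (14 of 18 fell), mitochondrial synthetases mostly at or above it (6 of 17 rose, 1 fell), and the other roles hold changes both ways.

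Among the members that set eIF2 phosphorylation, the kinase genes Eif2ak3 and Eif2ak4 rose and the phosphatase regulator gene Ppp1r15a fell. Eif2ak3 encodes PERK, the eIF2 kinase of the endoplasmic reticulum. Its level was 161, 165, 167 and 168 CPM in ad-GFP and 328, 331, 325 and 325 CPM in ad-CRE, so that the groups lay far apart with little spread within each. This is a 1.98-fold difference (log2 fold change 0.99 ± 0.027 SE, n = 4 libraries a group, adjusted p = 2.66e-24 by edgeR's quasi-likelihood test), over 12233 reads in ad-GFP and 26278 in ad-CRE. The gene spans 70844515 to 70905245 on chromosome 6, plus strand.

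Eif2ak4 encodes GCN2, the kinase that responds to uncharged tRNA. It stood at 39.7, 39.5, 37.9 and 38.8 CPM in ad-GFP and at 47.1, 47.9, 48.5 and 50.3 CPM in ad-CRE, every ad-CRE library being higher (log2 fold change 0.31 ± 0.044 SE, edgeR adjusted p = 2.8e-07). Ppp1r15a encodes GADD34, which brings a phosphatase to eIF2 and so reverses the response. Its level fell from 152, 149, 151 and 159 CPM to 103, 117, 117 and 108 CPM, 27.0% lower with no overlap (log2 fold change -0.45 ± 0.037 SE, edgeR adjusted p = 2.34e-12).

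Other eIF2 genes, from a list of eIF2, eIF2B and their other kinases, moved in both directions: among 17 tested genes there were 5 rises, 8 falls and 4 that missed the threshold (median log2 fold change -0.02). Over all genes 36.8% rose and 36.3% fell. Eif2ak2, which encodes the double-stranded RNA kinase PKR, was the kinase with the largest fall in it. It stood at 178, 176, 174 and 172 CPM in ad-GFP and 51.7, 47.5, 52.8 and 51.8 CPM in ad-CRE (log2 fold change -1.78 ± 0.036 SE, edgeR adjusted p = 1.47e-27). Eif2ak1, which encodes the heme-regulated kinase HRI, rose by a log2 fold change of 0.19 (edgeR adjusted p = 0.000168). Of the 4 eIF2 kinase genes, 3 were therefore higher and Eif2ak2 lower. Impact, whose product restrains GCN2, went from 114 to 126 CPM down to 53.3 to 58.9 CPM (log2 fold change -1.11, edgeR adjusted p = 2.77e-21). Gcn1, whose product activates GCN2, went from 217 to 237 CPM up to 290 to 305 CPM (0.40, edgeR adjusted p = 1.48e-13). Eif2s3x, which encodes the gamma subunit of eIF2, was at 328 to 345 CPM against 333 to 342 CPM.

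Of the 6 tested transcription factors 4 fell (36.3% of all genes did), 1 rose (36.8% of all genes) and Atf4 did not pass the test. Atf4 had the highest deposited FPKM of the role, a level per gene length, at 206 in ad-GFP and 199 in ad-CRE. It stood at 356, 356, 343 and 352 CPM in ad-GFP and at 345, 346, 344 and 349 CPM in ad-CRE, and the groups overlapped. The log2 fold change was -0.02, with a 95% interval of -0.07 to 0.02 (edgeR adjusted p = 0.384). That interval is narrow, but it reflects the spread between these libraries after TMM scaling, and that spread may be technical. On the log2 scale of the deposited FPKM the difference was -0.05 and passed the threshold (adjusted p = 0.0458 by limma).

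Atf5 encodes a relative of ATF4 that acts in the mitochondrial branch of the response. It was at 97.7, 95.3, 90.5 and 98.8 CPM in ad-GFP and at 35.9, 40.2, 39.5 and 37.7 CPM in ad-CRE, 59.9% lower (log2 fold change -1.32 ± 0.043 SE, edgeR adjusted p = 4.31e-22). No other member fell by as much. The gene lies at 44812256 to 44816658 on chromosome 7, minus strand, and shares 4.11% of its exon bases with Il4i1 and Nup62 on the other strand.

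Cebpb and Cebpg encode C/EBP proteins that can pair with ATF4, and both fell. Cebpb stood at 26.1, 24.4, 20.5 and 24.9 CPM against 13.1, 14.8, 12.4 and 13.1 CPM (log2 fold change -0.85 ± 0.074 SE, edgeR adjusted p = 1.58e-11), though 20.7% of its exon bases are shared with Tmem189 on the other strand. Cebpg stood at 81.3, 86.9, 83.9 and 88.3 CPM against 59.6, 57.7, 61.5 and 61.0 CPM (-0.50 ± 0.039 SE, edgeR adjusted p = 8.93e-13). Neither gene's groups overlapped. Nupr1, a small stress-induced chromatin protein, went from 129, 128, 144 and 123 CPM to 92.9, 93.2, 87.6 and 94.4 CPM, 29.9% lower (-0.51 ± 0.040 SE, edgeR adjusted p = 8.03e-13).

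Ddit3 encodes CHOP, the factor tied to cell death under lasting stress. Its level was 54.3, 52.7, 61.7 and 47.0 CPM in ad-GFP and 57.6, 59.5, 63.0 and 62.1 CPM in ad-CRE, with 1 ad-GFP library inside the ad-CRE range. The rise of 0.17 ± 0.054 SE on the log2 scale passed (edgeR adjusted p = 0.00732), but without ad-GFP replicate 4, the lowest library, it was 0.11 with an edgeR adjusted p of 0.0597, and it was lost on the FPKM scale (adjusted p = 0.119 by limma). Thus Eif2ak3 rose 1.98-fold, while of the mRNAs of the factors that act downstream of PERK in the textbook pathway Ddit3 was 12.3% higher and Atf4 did not pass the test.

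**Figure D3:**
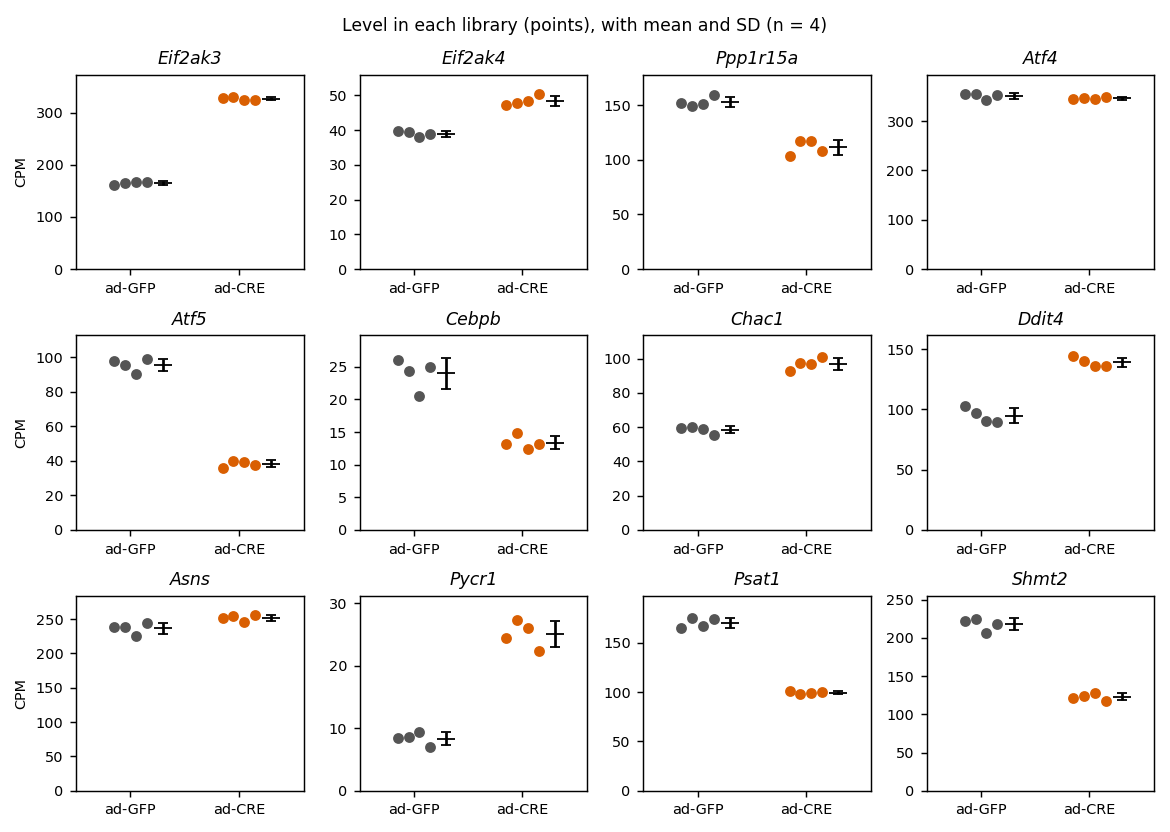
Level of 12 members in each of the 8 libraries (CPM, linear axis from 0), with 1 point per library and the mean ± SD of each group beside it. The libraries of Eif2ak3, Atf5, Pycr1 and Shmt2 lie apart by group, whereas those of Atf4 overlap.

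The effectors split by direction. Chac1, a glutathione-degrading enzyme, was at 59.6, 59.9, 59.0 and 55.7 CPM in ad-GFP and 92.6, 97.2, 96.8 and 101 CPM in ad-CRE, 65.5% higher (log2 fold change 0.72 ± 0.038 SE, edgeR adjusted p = 9.66e-17). Ddit4, whose product REDD1 restrains mTORC1, went from 103, 96.7, 90.3 and 89.6 CPM to 144, 140, 136 and 136 CPM (0.55 ± 0.038 SE, edgeR adjusted p = 4.5e-14). Every ad-CRE library was above every ad-GFP library for both. Sesn2, another restraint on mTORC1, fell by less: it was at 159, 150, 146 and 156 CPM against 135, 141, 133 and 127 CPM (-0.19 ± 0.034 SE, edgeR adjusted p = 1.17e-05). Eif4ebp1 encodes the cap-binding inhibitor 4E-BP1 and was at 91.5, 95.2, 86.9 and 89.3 CPM against 75.7, 83.2, 76.7 and 71.8 CPM (-0.24 ± 0.041 SE, edgeR adjusted p = 5.76e-06). Its groups did not overlap either. Trib3, a pseudokinase that feeds back on ATF4, stood at 85.0 to 90.5 CPM against 80.3 to 86.3 CPM and did not pass (-0.07, 95% interval -0.14 to 0.00, edgeR adjusted p = 0.0924), but it passed with scaling by total counts (-0.1, adjusted p = 0.0198).

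The 6 genes of amino acid synthesis held the member that rose by the largest factor, Pycr1, beside 2 that fell, Psat1 and Phgdh. Pycr1 encodes a mitochondrial enzyme of the last step of proline synthesis, and proline is abundant in collagen. It stood at 8.38, 8.67, 9.40 and 6.96 CPM in ad-GFP and at 24.5, 27.3, 26.1 and 22.4 CPM in ad-CRE. The lowest ad-CRE library was thus well above the highest ad-GFP one, a 3.0-fold difference (log2 fold change 1.58 ± 0.081 SE, edgeR adjusted p = 3.69e-17) over 622 and 2020 reads. The gene lies at 120635712 to 120643769 on chromosome 11, minus strand, and its upstream match to the response element is printed above. Per gene length it went from 5.21 to 14.7 FPKM and stayed the lowest of the role in both groups.

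Other genes of proline synthesis moved by less. Aldh18a1, which makes the precursor of proline and ornithine, was at 140, 137, 138 and 142 CPM against 152, 158, 154 and 143 CPM (log2 fold change 0.12 ± 0.032 SE, edgeR adjusted p = 0.000879), and did not pass on the FPKM scale (adjusted p = 0.216 by limma). Its groups lay next to each other without overlap. From the list of other folate and serine genes, Pycrl, a relative of Pycr1, fell (log2 fold change -0.47, edgeR adjusted p = 9.39e-06).

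In the serine pathway the enzymes of the first steps fell and that of the last step did not pass the test. Phgdh, the entry enzyme, stood at 317, 314, 308 and 318 CPM in ad-GFP and at 236, 245, 236 and 218 CPM in ad-CRE, 25.6% lower (log2 fold change -0.43 ± 0.030 SE, edgeR adjusted p = 7.96e-14). Psat1, the aminotransferase that follows it, stood at 165, 175, 167 and 174 CPM against 101, 98.2, 98.7 and 99.9 CPM, 41.6% lower (-0.78 ± 0.031 SE, edgeR adjusted p = 7.87e-20). For both, the groups were far apart. Psph, the phosphatase that completes serine, was at 46.2, 48.9, 40.1 and 48.8 CPM against 45.0, 43.6, 47.2 and 48.3 CPM, with a 95% interval of -0.11 to 0.10 on the log2 scale (edgeR adjusted p = 0.986).

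Asns, asparagine synthetase, is a classical ATF4 target with the element 23 bases before its start. It was at 239, 238, 226 and 244 CPM in ad-GFP and at 251, 254, 246 and 256 CPM in ad-CRE. The groups did not overlap, but the rise was small (log2 fold change 0.09 ± 0.028 SE, edgeR adjusted p = 0.00614) and was lost with libraries scaled by total counts (adjusted p = 0.0525) and on the FPKM scale (adjusted p = 0.0625 by limma).

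Of the 4 one-carbon genes, 2 mitochondrial ones fell. Shmt2 encodes the mitochondrial enzyme that splits serine into glycine and a folate-bound carbon. It stood at 222, 225, 207 and 218 CPM in ad-GFP and at 122, 124, 128 and 117 CPM in ad-CRE, 43.8% lower (log2 fold change -0.83 ± 0.032 SE, edgeR adjusted p = 3.48e-20). Mthfd1l, which releases formate from mitochondria, stood at 87.7, 88.2, 84.9 and 85.3 CPM against 59.0, 58.2, 56.2 and 56.9 CPM, 33.5% lower (-0.59 ± 0.037 SE, edgeR adjusted p = 7.4e-15). Both falls were far larger than the spread within a group. Mthfd2, which acts between them, was at 114, 115, 106 and 113 CPM against 119, 117, 116 and 121 CPM. Its log2 fold change of 0.08 ± 0.033 SE passed narrowly (edgeR adjusted p = 0.036) and did not pass under DESeq2 (adjusted p = 0.0538) or with scaling by total counts (0.173). It was also lost without ad-GFP replicate 3 (adjusted p = 0.147) or 4 (0.0502), or ad-CRE replicate 1 (0.0711) or 4 (0.0805), by edgeR. Shmt1, the cytosolic counterpart of Shmt2, was at 15.7 to 18.4 CPM against 15.3 to 17.7 CPM and did not pass (-0.04, 95% interval -0.18 to 0.10, edgeR adjusted p = 0.644).

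The list of other folate and serine genes held larger falls than the members. Its 17 tested genes held 4 rises, 8 falls and 5 that missed the threshold (median -0.18), beside 36.8% and 36.3% of all genes that rose and fell. Aldh1l2, a mitochondrial enzyme that oxidises the folate-bound carbon, went from 192 to 210 CPM down to 38.3 to 42.8 CPM (log2 fold change -2.35 ± 0.039 SE, edgeR adjusted p = 1.17e-29). Its cytosolic relative Aldh1l1 went from 48.0 to 49.7 CPM down to 16.2 to 18.2 CPM (-1.48, edgeR adjusted p = 2.37e-21). The groups of both genes lay far apart.

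The cytosolic synthetases mostly fell: 14 of the 18 fell (77.8%, against 36.3% of all genes), while 2 rose and 2 missed the threshold. The median log2 fold change was -0.20. The groups did not overlap in 16, against 66.2% of all genes. Their summed level was 5670 ± 40.3 CPM (SD, n = 4) in ad-GFP against 4910 ± 31.7 CPM in ad-CRE, with no library of one group inside the range of the other. Group means of the 18 genes lay between 73.3 and 626 CPM, and the part of level in how many passed was not tested. Most changes were modest, and 2 of the 14 falls reached 0.5 on the log2 scale (11.1% of the 18, against 18.7% of all genes).

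These 2 were Wars and Rars. Wars, tryptophanyl-tRNA synthetase, is also known as a target of interferon. It stood at 244, 225, 221 and 232 CPM in ad-GFP and at 136, 138, 142 and 128 CPM in ad-CRE, 40.9% lower (log2 fold change -0.76 ± 0.034 SE, edgeR adjusted p = 9.82e-19). Rars, for arginine, stood at 414, 436, 439 and 433 CPM against 254, 259, 266 and 264 CPM, 39.4% lower (-0.72 ± 0.026 SE, edgeR adjusted p = 6.44e-21). The next in size lay well short of these. They were Cars for cysteine at 204 to 227 against 157 to 168 CPM (-0.39 ± 0.032 SE, edgeR adjusted p = 3.64e-12) and Gars for glycine at 525 to 548 against 414 to 429 CPM (-0.35 ± 0.024 SE, edgeR adjusted p = 4.6e-14).

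Hars for histidine was at 90.9, 93.7, 98.1 and 91.9 CPM against 73.0, 73.6, 73.5 and 73.3 CPM (log2 fold change -0.35 ± 0.036 SE, edgeR adjusted p = 3.71e-10). Eprs, the bifunctional enzyme for glutamate and proline, was at 537 to 566 against 430 to 455 CPM (-0.32 ± 0.025 SE, edgeR adjusted p = 9.68e-13). Both had tight groups that did not overlap. Yars, Nars, Tars, Dars, Mars1, Aars, Vars and Qars fell by less, with log2 fold changes from -0.27 (Yars) to -0.08 (Qars, edgeR adjusted p = 0.0113). Qars did not pass when genes of low counts were kept in the test (adjusted p = 0.056). Aars, at 608 to 618 against 541 to 561 CPM, shares 14.3% of its exon bases with Exosc6 on the same strand.

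Iars for isoleucine and Kars for lysine went the other way. Iars stood at 442, 451, 443 and 463 CPM in ad-GFP and at 504, 505, 500 and 517 CPM in ad-CRE, 12.6% higher (log2 fold change 0.17 ± 0.024 SE, edgeR adjusted p = 2.27e-07). Kars rose by 0.15 ± 0.033 SE (edgeR adjusted p = 0.000152) with overlapping groups. Lars for leucine (0.04, 95% interval -0.01 to 0.09, edgeR adjusted p = 0.137) and Sars for serine (-0.01, 95% interval -0.06 to 0.04, edgeR adjusted p = 0.642) did not pass. Both rises and the Lars value were among the 8 enzymes known to sit together in the multi-synthetase complex (Eprs, Iars, Lars, Mars1, Qars, Rars, Kars and Dars), with 2 rises, 5 falls and 1 that missed the threshold (median -0.12). Of the other 10 cytosolic enzymes 9 fell and none rose (median -0.27), where 36.8% of all genes rose and 36.3% fell. This grouping was made after the values were seen and the difference between the 2 sets was not tested.

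By deposited FPKM, the cytosolic synthetases ranged in ad-GFP from 38.0 (Yars) to 258 (Nars), with a median of 86.6. The mitochondrial synthetases ranged from 2.27 (Mars2) to 20.5 (Rars2), with a median of 5.0. The families thus did not overlap in level in ad-GFP. In ad-CRE the medians were 75.3 and 6.26 FPKM.

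Of 17 mitochondrial synthetases 6 rose (35.3%, against 36.8% of all genes), 1 fell (5.88%, against 36.3%) and 10 did not pass. The median log2 fold change was 0.10. Their summed level was 376 ± 7.26 CPM (SD, n = 4) in ad-GFP against 425 ± 5.93 CPM in ad-CRE, again with no overlap. The 10 that did not pass lay between 4.97 and 43.9 CPM in every library, a range that also holds members that passed, and the part of their level in this was not tested. Among them Fars2, for phenylalanine, passed without ad-CRE replicate 2 (log2 fold change 0.2, edgeR adjusted p = 0.0312).

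Vars2, for valine, rose most, from 20.1, 18.8, 19.4 and 19.2 CPM to 31.4, 33.2, 32.3 and 30.6 CPM, 64.6% higher (log2 fold change 0.72 ± 0.055 SE, edgeR adjusted p = 6.26e-13). Iars2, the most abundant by CPM, stood at 85.7, 88.9, 89.1 and 89.5 CPM against 110, 111, 114 and 111 CPM (0.34 ± 0.033 SE, edgeR adjusted p = 1.53e-10), though it shares 22.9% of its exon bases with Rab3gap2 on the other strand. Aars2 for alanine was at 14.2 to 17.0 against 19.7 to 22.2 CPM (0.38 ± 0.068 SE, edgeR adjusted p = 1.15e-05). Lars2 for leucine was at 18.0 to 19.6 against 22.9 to 25.4 CPM (0.34 ± 0.059 SE, edgeR adjusted p = 7.24e-06). None of these 4 overlapped between groups.

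Hars2 (log2 fold change 0.18, edgeR adjusted p = 0.00678) and Rars2 (0.12, edgeR adjusted p = 0.0265) rose by less. Hars2 was lost on the FPKM scale (adjusted p = 0.0619 by limma) and Rars2 with scaling by total counts (0.0863), under DESeq2 (0.0619) and, by edgeR, without ad-GFP replicate 3 (0.0529) or 4 (0.0899) or ad-CRE replicate 1 (0.0655). Mars2, for methionine, was the exception in direction. It stood at 25.0, 24.5, 24.8 and 27.1 CPM in ad-GFP and at 16.8, 17.0, 15.7 and 16.5 CPM in ad-CRE, 35.0% lower (-0.62 ± 0.060 SE, edgeR adjusted p = 1.54e-10).

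For 14 amino acids a cytosolic and a mitochondrial synthetase gene were paired by name. The mitochondrial one had the higher log2 fold change in 12. Eprs, Farsa and Farsb were not paired with Ears2, Pars2 and Fars2, so glutamate, proline and phenylalanine are not covered. For alanine, histidine, arginine and valine the cytosolic enzyme fell and the mitochondrial one rose. For methionine both fell and for isoleucine both rose. Within a library the ratio of the 2 genes does not depend on how libraries are scaled. That ratio was compared between groups by a two-sided exact permutation test over all 70 splits, with adjustment over the 14 pairs, a test added after the data had been seen. It passed in 12 pairs, 11 with a higher mitochondrial share and methionine with a lower one, each at the smallest p that these splits can give (0.0286, adjusted 0.0333).

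Vars2 was 10.1% to 10.7% of Vars in CPM across the ad-GFP libraries and 17.7% to 19.2% across the ad-CRE libraries, a gain of 0.86 on the log2 scale. CPM is not adjusted for gene length, so the percentages of the pairs compare the groups and are not ratios per gene length. For arginine the share went from 8.04% to 9.06% up to 14.9% to 16.1% (0.85), and for tryptophan from 5.94% to 8.45% up to 12.9% to 13.9% (0.86). For tryptophan the cytosolic gene fell and Wars2 did not pass. Histidine (21.6% to 22.7% against 30.8% to 32.9%) and alanine (2.33% to 2.80% against 3.57% to 3.99%) gained 0.53 and 0.52. Hars and Hars2 share 7.97% and 4.56% of their exon bases on opposite strands. Cysteine gained 0.46, leucine and asparagine 0.30 each, threonine 0.29 and isoleucine 0.17. Methionine went from 14.3% to 15.8% down to 10.2% to 11.3% (-0.47). Tyrosine (0.17, exact permutation p = 0.0857, adjusted 0.0923) and serine (-0.05, exact permutation p = 0.629) did not pass. Of single genes, 66.2% did not overlap between the groups. How often a ratio of any 2 genes does so was not measured.

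**Figure D4:**
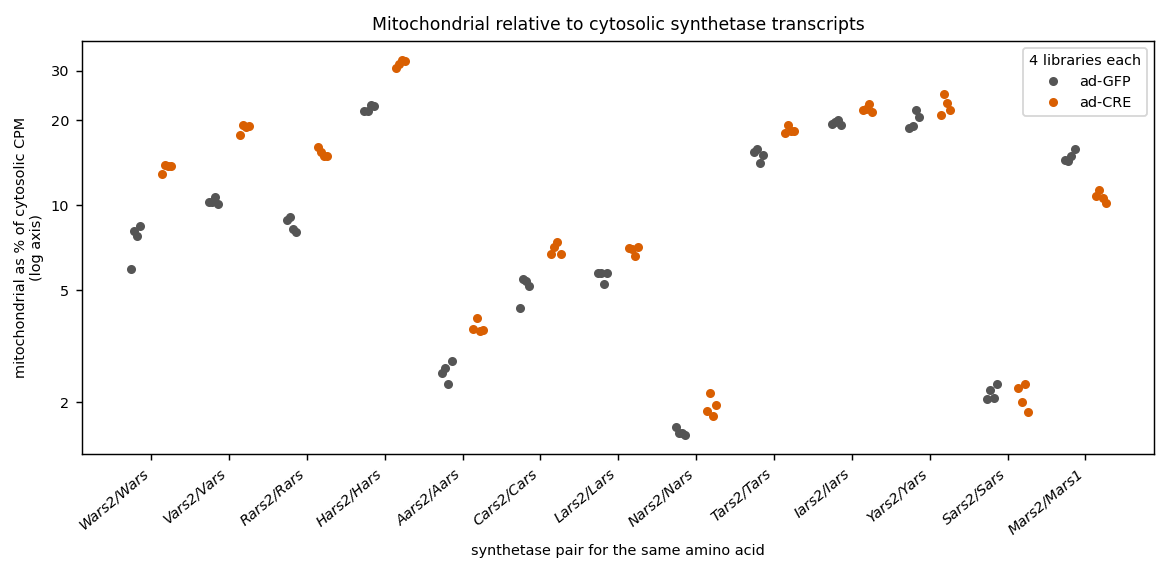
Mitochondrial synthetase as a percent of the cytosolic synthetase for the same amino acid, within each of the 8 libraries (CPM ratio, log axis), for 13 of the 14 pairs. The ad-CRE libraries lie above the ad-GFP libraries in 10 of them, below them for methionine, and overlap them for tyrosine and serine.

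Other genes of tRNA charging moved both ways. The 13 tested genes held 4 rises, 4 falls and 5 that missed the threshold (median 0.08), beside 36.8% and 36.3% of all genes. The cytosolic phenylalanine enzyme has a pair of subunits that differed: Farsb was at 115 to 125 against 90.7 to 94.7 CPM (log2 fold change -0.36, edgeR adjusted p = 4.76e-11), and Farsa at 48.5 to 54.5 against 52.4 to 56.7 CPM (0.08, edgeR adjusted p = 0.101). Tarsl2, a second cytosolic threonine enzyme, fell (-0.75, edgeR adjusted p = 3.75e-09). Mtfmt, which formylates the mitochondrial initiator methionyl-tRNA made by the Mars2 product, rose from 8.47 to 9.04 CPM up to 11.1 to 12.6 CPM (0.44, edgeR adjusted p = 3.82e-05). Xpot, the tRNA exporter, was at 218 to 231 against 239 to 242 CPM (0.09, edgeR adjusted p = 0.00484), a call lost on the FPKM scale (adjusted p = 0.244 by limma).

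Further genes known as ATF4 targets did not share a direction. The 26 tested genes held 9 rises, 13 falls and 4 that missed the threshold (median -0.11), where 36.8% of all genes rose and 36.3% fell. Slc7a11, the cystine transporter, went from 120 to 129 CPM down to 42.9 to 47.4 CPM (log2 fold change -1.47, edgeR adjusted p = 1.86e-24). Cth, which makes cysteine from cystathionine, went from 77.2 to 79.8 CPM down to 35.5 to 40.4 CPM (-1.04, edgeR adjusted p = 2.64e-19), and the glycine transporter gene Slc6a9 fell by 0.86 on the log2 scale (edgeR adjusted p = 9.26e-16). Sqstm1, an autophagy receptor and the most abundant of the list by CPM, was at 1490 to 1530 against 1530 to 1630 CPM (0.06, edgeR adjusted p = 0.0217). That call was lost with scaling by total counts (adjusted p = 0.224) and without ad-CRE replicate 2 (0.053) or 3 (0.124).

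In the ATF6 and XBP1 arms, the branches of the unfolded protein response that act beside PERK, there were 4 rises, 13 falls and 4 genes that missed the threshold among 21 tested (median -0.16). Of all genes 36.8% rose and 36.3% fell. The 4 that rose were Ern1 (log2 fold change 0.35), which encodes the sensor that activates XBP1, Sel1l (0.22), Edem1 (0.19) and Hyou1 (0.14), named after their values were seen. Hspa5, the main chaperone of the endoplasmic reticulum, stood at 997, 999, 1020 and 983 CPM in ad-GFP and at 713, 700, 728 and 735 CPM in ad-CRE (log2 fold change -0.48, edgeR adjusted p = 6.36e-18). Hsp90b1, another chaperone, was at 758 to 797 against 578 to 606 CPM (-0.39, edgeR adjusted p = 3.09e-15). Atf6 itself was at 136 to 146 against 87.2 to 94.2 CPM (-0.65, edgeR adjusted p = 6.56e-17). The groups of these 3 genes did not overlap, and all lay lower where Eif2ak3 lay higher.

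Because Eif2ak2 and Wars, known interferon targets, fell, the same promoter windows were also searched on both strands for the core of the interferon-stimulated response element, spelled as a pair of GAAA units with any 2 bases between them. It was in 2 of 48 members (4.17%), Qars and Ppp1r15a, against 3.99% of genes, so the share is near the background. No promoter was found under the symbol Wars, and Eif2ak2 is not a member, so neither of these genes was searched. The share therefore does not bear on either of them.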

How the data were processed

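RNA-seq was measured in 4 ad-GFP and 4 ad-CRE libraries. Builds GRCm38 and mm10 appear in the submitters' processing notes; RNeasy and SMARTer kits were used, per the labels' protocols. Not given in the sources used here: the aligner, the counter, its use of strand and its handling of reads that map to several genes. The authors deposited 1 table with, per the file headers, a raw count and an FPKM value for each gene and library, a mean FPKM per group, a log2 fold change and a p-value with an FDR. The authors' log2 fold changes and p-values were not used for any result. Coordinates and exon overlaps came from GENCODE release M21, and promoters from RefSeq.

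Counts were filtered with filterByExpr, scaled by TMM and compared with the quasi-likelihood test of edgeR 4.0.16 in R 4.3.3, modelling the group alone. Benjamini-Hochberg adjustment ran over all 13702 genes, with a threshold of 0.05. CPM are counts scaled by library size after TMM. The SE is the absolute log2 fold change over the root of F. FPKM was used to compare levels between genes, except in the ratios of synthetase pairs, which used CPM. As log2(FPKM + 1) and log2(FPKM + 0.1) in limma 3.58.1, FPKM was also used as an alternative. DESeq2 1.42.0 was another. The test was run on simulated counts in which few genes changed, unlike here, so its error rate in these data was not measured.

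The members and lists were chosen with earlier results of these data known. Named per library were, for each role, the members with the largest changes and the highest CPM, and for each other list the genes with the smallest p and the highest CPM; Iars2, Pycrl, Farsa, Eif2ak1 and Gcn1 are also named, chosen after their values were seen. A few genes and a sequence that fall under these rules are not reported here by name. Replicate numbers are shared between groups, but deviations of same-numbered libraries correlated at 0.03, -0.04, -0.07 and 0.07, so they were not treated as pairs. Libraries of a group were not copies of each other, with a chi-square over degrees of freedom of 1.71 to 3.24 between them. That value cannot show if they came from distinct cultures.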

Additional observations from a re-analysis of the deposited data

Results flagged for a closer look

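Among 118 groups of 4 libraries (59 members in each of the 2 conditions), 1 (0.847%) had a library far from the others. This was Iars2 in ad-GFP replicate 1, at 85.7 CPM, where the other 3 libraries were at 88.9 to 89.5 CPM. Chance alone sets apart about 1 in 20 such groups, and the ad-CRE libraries, at 110 to 114 CPM, lay above all of these.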

How the results depend on the processing

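The fold changes of the tested members were recomputed with other scalings, filters, tests, units and thresholds and without each library in turn. So were the counts of calls among members and in the other pathway lists, and the fold changes of 18 genes of those lists. The cell type markers, Suv39h1, Smarca4, Pycrl, Farsa, Eif2ak1, Gcn1, Ern1, Sel1l, Edem1 and Hyou1 were not recomputed. Of 1003 values for the 59 tested members, which cover the settings other than a stricter threshold, 945 kept their direction and their side of the 0.05 threshold, and 36 of the 43 called members did so in all of these. Leaving out 1 library gave 14 to 18 members that rose and 26 that fell. It gave 0 to 1 one-carbon genes that rose (0 without ad-GFP replicate 3 or 4, or ad-CRE replicate 1 or 4) and 0 to 1 transcription factors (0 without ad-GFP replicate 4). On both log2 scales of FPKM, 11 members rose, with 1 in amino acid synthesis, 0 in one-carbon metabolism and 0 among transcription factors, and 2 mitochondrial synthetases fell (Mars2 and Yars2). The count of one-carbon genes that rose was also 0 with DESeq2 size factors, total counts, a filter of at least 5 CPM in 4 libraries, DESeq2 and a threshold of 0.01. The cause of these moves was not tested.

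A minimum size of 0.5 on the log2 scale leaves fewer genes by construction. Under it 5 members rose and 10 fell: 1 and 1 in amino acid synthesis, 0 and 2 cytosolic synthetases, 1 and 0 kinases and phosphatase regulator, 1 mitochondrial synthetase that rose, 0 one-carbon genes and 0 transcription factors that rose, and 0 effectors that fell. In the other lists it gave 0 and 1 for the ATF6 and XBP1 arms, 0 and 3 for eIF2 and eIF2B, 1 and 5 for ATF4 targets, 1 and 5 for folate and serine genes, and 0 and 1 for charging factors.

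Direction turned only in genes that did not pass the test. The log2 fold change of Psph was 0.014 with no filter, 0.001 under DESeq2 and limma voom, 0.002 with the replicate block and -0.059 to 0.031 without 1 library. Sars was 0.002 with no filter and -0.024 to 0.001 without 1 library. Nars2 was -0.078 and -0.1 on the FPKM scales (pseudocounts 1 and 0.1) and -0.011 to 0.076 without 1 library, Tars2 was -0.017 and -0.018 on the FPKM scales, and Sars2 was -0.1 to 0.016 without 1 library. Shmt1 was 0.03 and 0.034 on the FPKM scales and -0.077 to 0.013 without 1 library. Eif2s3x was 0.015 with no filter, 0.002 under DESeq2, 0.0 under limma voom and -0.012 to 0.013 without 1 library.

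With the replicate number as a block, 17 members rose and 26 fell, as without it, and 5011 and 4952 of all genes did. Since the numbers do not pair the libraries, this is an alternative only. For the synthetase pairs, settings chosen after seeing the data gave 10 higher and 1 lower with FPKM, and 11 and 1 without any 1 library. Read totals per group among the mitochondrial synthetases began at 419 (Pars2), and the part of depth in their calls was not tested.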
